A study of Mus musculus with 6 samples.

Results

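The mammary luminal identity and milk genes are 10 named rows of a gene count table: Gata3, Elf3, Elf5, Ehf, Foxa1, Esr1, Prlr, Ltf, Csn3 and Muc1. They were chosen by name, as luminal transcription factors, hormone receptors and secretory products, out of 31017 genes in the table, and 6 of the 10 had enough counts to be tested. Poly(A) RNA was sequenced from 4T1 cells, a mouse mammary carcinoma line, grown in 3D collagen I gels. The 3 KO libraries came from cells nucleofected with Cas9 and guides for FGFR2, a receptor for fibroblast growth factors, and the 3 control libraries from cells nucleofected with Cas9 and control guides. All 6 libraries share Cas9, the nucleofection, the gel culture and the collagenase digestion before harvest. The labels do not say whether the KO cells were a pool or a clone, nor which of 2 collagen concentrations a library came from. They number the replicates without saying that these were separate cultures, so the spread between libraries may be technical in part.

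In the mammary gland, luminal cells line the ducts and alveoli and make the milk, while basal cells surround them. Gata3 keeps luminal cells differentiated, Foxa1 opens chromatin for the oestrogen receptor encoded by Esr1, and Elf5 drives the alveolar programme together with prolactin. Prolactin binds the receptor encoded by Prlr, which acts through the kinase Jak2 and the factor Stat5 on milk protein genes, among them the caseins.

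The libraries held between 15531790 and 20447719 counts. CPM is the standard depth-scaled count, from a library's total over the tested genes and its TMM factor. Fgfr2 itself stood at 101, 81.2 and 95.2 CPM in KO libraries 1 to 3. In control libraries 1 to 3 Fgfr2 stood at 96.9, 95.9 and 106 CPM. Its log2 fold change was -0.11 (SE 0.056, edgeR quasi-likelihood adjusted p = 0.113). Whether the guides changed the sequence cannot be read from gene counts, and the groups are called by their labels. Across the table, 6639 of 12158 tested genes (54.6%) had an adjusted p below 0.05 in edgeR's quasi-likelihood test with Benjamini-Hochberg adjustment, 27.1% higher and 27.5% lower in KO libraries. The 3 KO libraries lay wholly above or below the 3 control libraries for 59.5% of tested genes.

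Among the 10 genes, Gata3 rose, Elf3 and Csn3 fell, and Ehf, Foxa1 and Esr1 did not pass the test. The rows of Elf5, Prlr, Ltf and Muc1 lay near 0 and are reported as absent at this depth, with their counts. The 3 calls among 6 tested genes are close to the background share of 54.6%, so the number called says nothing particular about these genes. Csn3 passed the filter on low counts through the control libraries alone and could hardly be called in the other direction. The count of calls and the median therefore support nothing. The median log2 fold change of the 6 was -0.21, beside -0.0061 over all tested genes. The summed CPM of the 10 genes ran from 266 to 284 in KO libraries and from 216 to 229 in control libraries, and most of it was Gata3.

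**Figure D1:**
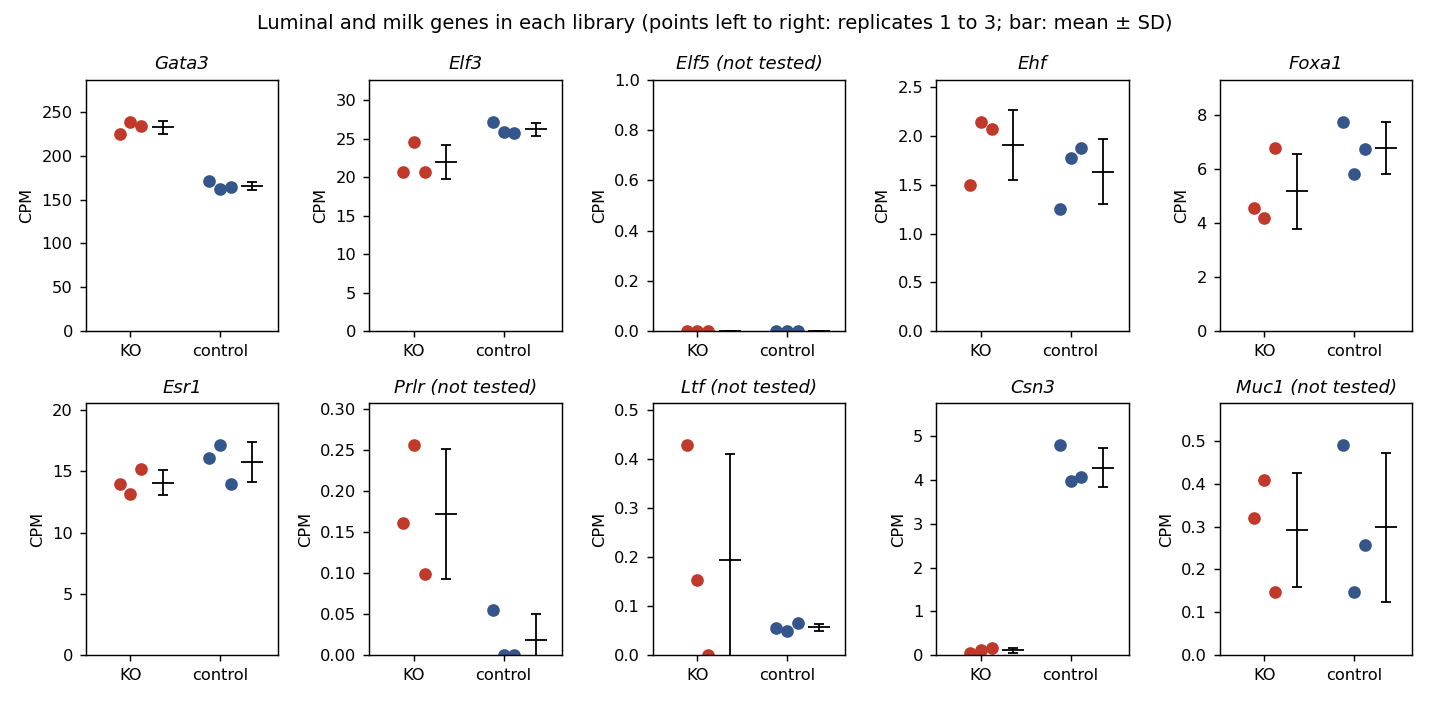
Level of each of the 10 genes in CPM (linear axes from 0, a scale for each gene), with KO libraries on the left and control libraries on the right of each panel. Points are replicates 1 to 3 and bars are the mean ± SD (n = 3). The groups are apart for Gata3, Elf3 and Csn3 among the tested genes, and Elf5 has 0 counts throughout.

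A pair of promoter windows is shown, because Elf3 is an ETS factor of epithelial cells that was expressed and changed, while Muc1, a membrane mucin of the luminal surface, stayed near 0. RefSeq start sites (build GRCm38.p6) could be matched for 8 of the 10 genes, with 12 windows of 250 bases before a start, since some genes have several. Capitals mark the ETS core, GGAA on the strand shown or TTCC for GGAA on the other strand. Each sequence runs 5′ to 3′ on the strand of its gene, and the end of the Elf3 window that lies in an annotated exon was left out. The Elf3 stretch is chr1:135258569-135258722 (minus strand) and the Muc1 stretch is chr3:89228806-89229055 (plus strand).
Elf3: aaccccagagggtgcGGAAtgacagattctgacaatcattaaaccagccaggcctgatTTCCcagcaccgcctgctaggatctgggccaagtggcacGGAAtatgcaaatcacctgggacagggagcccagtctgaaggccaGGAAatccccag
Muc1: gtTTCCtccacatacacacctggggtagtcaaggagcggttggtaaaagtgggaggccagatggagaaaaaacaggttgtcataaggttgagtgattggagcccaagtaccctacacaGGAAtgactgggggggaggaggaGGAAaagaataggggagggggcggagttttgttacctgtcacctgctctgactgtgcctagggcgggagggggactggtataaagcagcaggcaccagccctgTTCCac

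Each stretch holds 4 ETS cores. Over the 12 full windows the number ran from 1 to 7, and all 12 held at least 1. That letter pattern is short: 93.4% of 32851 mouse promoter windows of the same length hold it, with a median of 3. The windows also differed in CpG dinucleotides. The full windows of Gata3 and Foxa1 held 19 and 21 CpG, above the upper quartile of 16 over all windows, and those of Muc1 and Ltf held 3 and 4, below the median of 6. The 2 Esr1 windows held 4 and 7 CpG and the 2 Elf5 windows 2 and 8, with 1685 counts for Esr1 over all libraries and 0 for Elf5.

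Gata3, a zinc finger factor that specifies and maintains luminal cells (chromosome 2, 9857078 to 9890034, minus strand), was the most abundant of the 10. It stood at 224, 239 and 234 CPM in KO libraries 1 to 3 and at 171, 162 and 164 CPM in control libraries 1 to 3. Every KO library was above every control library, and the gap between the groups was wider than the spread within either. Gata3 averaged 232 ± 7.28 CPM in KO libraries and 165 ± 4.70 CPM in control libraries (SD, n = 3 each), 1.40-fold, with a log2 fold change of 0.49 (edgeR adjusted p = 2.77e-13, SE 0.039, 95% interval 0.41 to 0.57). The call was lost only against a minimum fold change of 1.5 (edgeR adjusted p = 1) among the alternatives tried. In the annotation, Gata3 shares 155 exon bases with the antisense gene Gm13256, which had 1, 5 and 6 counts in KO libraries and 0 in each control library, against 4195, 4673 and 4737 for Gata3 in KO libraries.

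Elf3, an ETS factor restricted to epithelia (chromosome 1, 135253575 to 135258568, minus strand), was lower in KO libraries. Its level was 20.6, 24.5 and 20.7 CPM in KO libraries 1 to 3 and 27.2, 25.8 and 25.7 CPM in control libraries 1 to 3. The groups did not overlap, but KO library 2 came close to the control libraries. Elf3 averaged 22.0 ± 2.22 CPM in KO libraries and 26.2 ± 0.842 CPM in control libraries (SD, n = 3 each), with a log2 fold change of -0.26 (SE 0.082, 95% interval -0.42 to -0.091, edgeR adjusted p = 0.0078). Like that of Gata3, the call ended against a minimum fold change of 1.5 (edgeR adjusted p = 1). Leaving out 1 library at a time moved the log2 fold change between -0.34 without KO replicate 2 and -0.21 without KO replicate 3, and the edgeR adjusted p stayed at or below 0.0447.

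Ehf and Elf5 are ETS factors close to Elf3 in sequence and lie side by side on chromosome 2, Ehf at 103263433 to 103303278 (minus strand) and Elf5 at 103411688 to 103450989 (plus strand). The gap between them is 108.4 kb and holds 0 annotated protein-coding genes. Ehf, expressed in many glandular epithelia, had 28, 42 and 42 counts in KO libraries and 23, 36 and 29 in control libraries. These are 1.91 ± 0.355 CPM in KO libraries and 1.63 ± 0.332 CPM in control libraries (SD, n = 3 each), and the groups overlapped. The log2 fold change of Ehf was 0.23 with a wide interval of -0.34 to 0.80 (SE 0.28, edgeR adjusted p = 0.506), so a rise of 1.5-fold and a small fall both lie inside it. Elf5, the alveolar factor of the pair, had 0 counts in all 6 libraries. A count of 0 allows up to 3 counts, which is 0.0513 CPM over the 3 KO libraries and 0.0554 CPM over the 3 control libraries.

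Foxa1, the forkhead factor that prepares chromatin for nuclear receptors (chromosome 12, 57540628 to 57546916, minus strand), was low and variable. It stood at 4.55, 4.19 and 6.77 CPM in KO libraries 1 to 3 and at 7.74, 5.81 and 6.71 CPM in control libraries 1 to 3. KO libraries 1 and 2 were below all control libraries, while KO library 3 lay among them. The means were 5.17 ± 1.40 CPM in KO libraries and 6.75 ± 0.966 CPM in control libraries (SD, n = 3 each), a log2 fold change of -0.38 (SE 0.17, 95% interval -0.72 to -0.034, edgeR adjusted p = 0.0579). Single libraries decide this value. Leaving out KO replicate 3 gave a log2 fold change of -0.62 (edgeR adjusted p = 0.0033) and without control replicate 2 it was -0.48 (edgeR adjusted p = 0.0363). Without KO replicate 2 it was -0.24 (edgeR adjusted p = 0.257).

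Esr1 encodes the oestrogen receptor alpha, which marks hormone-sensing luminal cells (chromosome 10, 4611593 to 5005614, plus strand). The cells held its transcript in every library, with 261, 257 and 307 counts in KO libraries 1 to 3 and 296, 348 and 216 in control libraries 1 to 3. This corresponds to 14.0, 13.1 and 15.2 CPM in KO libraries and 16.1, 17.1 and 13.9 CPM in control libraries, and the groups overlapped. Esr1 averaged 14.1 ± 1.02 CPM in KO libraries and 15.7 ± 1.63 CPM in control libraries (SD, n = 3 each). Its log2 fold change of -0.17 (SE 0.10, 95% interval -0.37 to 0.039) did not pass (edgeR adjusted p = 0.166). A gene count does not show whether the reads come from a transcript that codes for the full receptor.

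Prlr, the prolactin receptor gene (chromosome 15, 10177238 to 10349180, plus strand), had 3, 5 and 2 counts in KO libraries and 1, 0 and 0 in control libraries. All 3 KO libraries were above the control libraries, on 10 counts in all against 1. Scaled to depth, the ratio of the summed counts was 9.25, with an exact 95% interval of 1.32 to 402 that covers counting error only. With no filter on low counts, the edgeR adjusted p of Prlr was 0.138. At 0.171 CPM over the KO libraries and 0.0185 CPM over the control libraries, the receptor row counts as absent in both groups.

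Csn3 encodes kappa-casein, which keeps the other caseins in solution in milk (chromosome 5, 87925579 to 87932665, plus strand), and it showed the widest difference of the 10 genes. It had 1, 2 and 3 counts in KO libraries 1 to 3 and 88, 81 and 63 counts in control libraries 1 to 3. That is 0.0535, 0.102 and 0.148 CPM in KO libraries, at or under the level of 3 counts in a library, and 4.80, 3.99 and 4.07 CPM in control libraries. The averages were 0.101 ± 0.0473 CPM in KO libraries and 4.28 ± 0.446 CPM in control libraries (SD, n = 3 each). Csn3 fell by 5.30 on the log2 scale (SE 0.40, edgeR adjusted p = 5.25e-14). Read from the summed counts of 6 in KO libraries and 232 in control libraries, the KO level was 0.0239 of the control level, with an exact 95% interval of 0.0087 to 0.053 for counting error. Since Csn3 entered the test through the control libraries alone, its p and its calls under other settings add no support beyond the counts themselves. With no filter on low counts its log2 fold change was -5.29.

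Csn3 was the only one of the 5 casein genes of the cluster with a count. Its 4 casein neighbours in the same cluster on chromosome 5, Csn1s1, Csn2, Csn1s2a and Csn1s2b, had 0 counts in all 6 libraries, as did Prr27 and Odam, the other protein-coding genes between Csn1s1 and Csn3. The other major milk proteins of the list, Wap and Lalba (whey proteins) and Glycam1, also had 0 counts in every library. The control level of Csn3 therefore stood alone in its cluster. In bulk RNA, fewer cells that make a transcript and less of it per cell cannot be told apart.

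Ltf encodes lactoferrin, an iron-binding protein of milk and neutrophils (chromosome 9, 111019271 to 111042767, plus strand). It had 8, 3 and 0 counts in KO libraries and 1 count in each control library, and the groups overlapped. The depth-scaled ratio of summed counts, 3.39, had an exact 95% interval of 0.896 to 18.9. Muc1, a membrane mucin of the luminal surface (chromosome 3, 89229057 to 89233381, plus strand), had 6, 8 and 3 counts in KO libraries and 9, 3 and 4 counts in control libraries. Its sums of 17 counts in KO libraries and 16 in control libraries give a ratio of 0.983 (exact 95% interval 0.467 to 2.08). No difference was detectable for either gene at this depth, and with no filter on low counts the edgeR adjusted p was 0.311 for Ltf and 0.985 for Muc1.

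**Figure D2:**
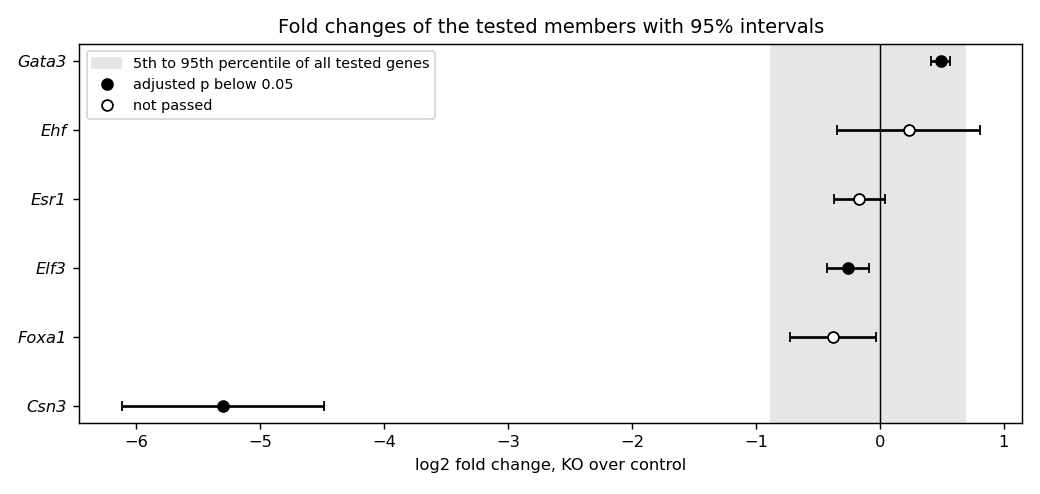
Log2 fold change, KO over control, of the 6 tested genes with 95% intervals from the edgeR fit. Filled points have an adjusted p below 0.05, and the grey band holds the middle of all 12158 tested genes, between the 5th and 95th percentiles (-0.87 to 0.68). Of the 6 point estimates only that of Csn3 lies outside the band.

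Levels can be set against each other between genes only per length, here as CPM per kb of all annotated exons of a gene. By that measure the order in KO libraries was Gata3 (58.4 CPM per kb), Elf3 (9.90), Foxa1 (1.55), Esr1 (1.03), Ehf (0.342), Muc1 (0.125), Ltf (0.0561), Csn3 (0.0244), Prlr (0.0112) and Elf5 (0). Over the 3 KO libraries Muc1 overlapped Ltf, Ltf overlapped Csn3 and Csn3 overlapped Prlr, and the other neighbours did not overlap. The order in control libraries was Gata3 (41.6 CPM per kb), Elf3 (11.8), Foxa1 (2.03), Esr1 (1.15), Csn3 (1.03), Ehf (0.293), Muc1 (0.127), Ltf (0.0163), Prlr (0.0012) and Elf5 (0). There Esr1 overlapped Csn3 and Prlr overlapped Elf5, and the other neighbours did not overlap. Csn3 had rank 8 in KO libraries and rank 5 in control libraries. The exon lengths of Esr1 (13.661 kb) and Prlr (15.339 kb) include long alternative exons, which lowers their values by this measure.

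**Figure D3:**
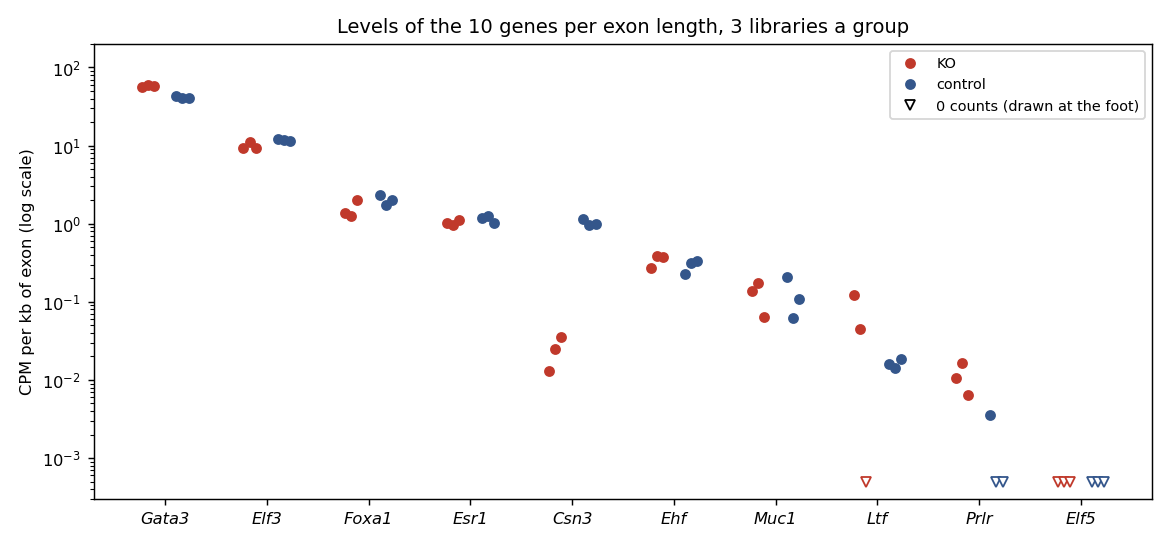
CPM per kb of annotated exon on a log axis, 3 KO and 3 control libraries a gene, ordered by the control mean. Open triangles at the foot are libraries with 0 counts. Gata3 lies highest in both groups and Csn3 is the gene whose place differs most between them.

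Genes whose pattern over the 6 libraries was nearest to that of each changed member were found by the root mean square difference of centred log2 CPM, among the 10063 genes that averaged 5 CPM or more. For Gata3 these were Mxd4 (0.022) and Gpr137b (0.025), and for Elf3 Amz2 (0.029) and Trappc9 (0.034). For Csn3 the nearest were farther off, Lilr4b at 0.23 and Unc13a at 0.25. Csn3 itself averaged less than 5 CPM, so genes at its own level were not searched. With 2 groups of 3 libraries this likeness mostly reflects a similar difference between the groups, for example a log2 fold change of 0.48 for Mxd4.

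Other transcription factors of luminal cells moved in both directions. Of 15 listed, 11 were tested, 4 rose and 5 fell, beside 27.1% higher and 27.5% lower over all tested genes, with a median log2 fold change of -0.062. Grhl1, a grainyhead factor of epithelial barriers, rose 17.1-fold, at 8.02 ± 1.09 CPM in KO libraries and 0.474 ± 0.156 CPM in control libraries (SD, n = 3 each, edgeR adjusted p = 1.96e-16). It had 134, 181 and 155 counts in KO libraries and 10, 6 and 9 in control libraries. Grhl1 passed the filter on low counts through the KO libraries alone. Its p and its place among the 4 that rose therefore add no support beyond these counts. Its relative Grhl2 did not pass (log2 fold change -0.062). Mecom fell to 8.15 ± 0.563 CPM in KO libraries, against 18.9 ± 1.73 CPM in control libraries (SD, n = 3 each). Xbp1, the factor of the secretory stress response, fell by 0.44 and Runx1 by 0.33 on the log2 scale. Tfap2a was among the 4 that rose, by 0.11, and its groups overlapped and it lost its call in 10 of 14 alternatives. Tbx3 had 0 counts, and Tfap2c, Spdef and Cited1, like Elf5 among the members, were too low to test.

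Of 16 luminal keratins and surface markers, 12 were tested, 8 fell and 2 rose (median log2 fold change -0.23). Over all tested genes 27.5% were lower and 27.1% higher. Krt18, a keratin of simple epithelia, fell to 918 ± 0.790 CPM in KO libraries, against 1402 ± 29.3 CPM in control libraries, and Krt19 fell to 126 ± 6.69 CPM, against 186 ± 3.43 CPM in control libraries (SD, n = 3 each). Epcam, an adhesion molecule of epithelial cells, fell by 0.42 on the log2 scale. The glycoprotein gene Cd24a went the other way, with 740 ± 11.1 CPM in KO libraries and 441 ± 8.38 CPM in control libraries (SD, n = 3 each). Among markers of luminal subsets, Itga2 fell to 191 ± 0.234 CPM in KO libraries, against 233 ± 6.12 CPM in control libraries (SD, n = 3 each). Ly6a, the other gene of the list that rose, had 3.11 ± 0.801 CPM in KO libraries and 1.20 ± 0.246 CPM in control libraries (SD, n = 3 each, edgeR adjusted p = 6.21e-05). Cd14 did not pass, at 9.10 ± 1.11 CPM in KO libraries and 9.37 ± 0.254 CPM in control libraries (SD, n = 3 each). Kit and Prom1 had 0 counts and Aldh1a3 had 2 in all.

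Of the 13 other hormone receptors and their coregulators, 10 were tested, 7 fell and 1 rose (median -0.21), beside 27.5% lower and 27.1% higher over all tested genes. The progesterone receptor gene Pgr had 0 counts in all libraries. Nrip1, a corepressor of nuclear receptors, fell to 89.7 ± 1.36 CPM in KO libraries, against 157 ± 5.11 CPM in control libraries (SD, n = 3 each, edgeR adjusted p = 2.02e-18). The glucocorticoid receptor gene Nr3c1 was the 1 that rose (0.27 on the log2 scale), and Igf1r and Thra fell by 0.22 and 0.30. Of 12 target genes of the oestrogen receptor, 6 were tested, 4 rose and 2 fell (median 0.48), beside 54.6% called over all tested genes. Ctsd, a lysosomal protease gene, rose to 452 ± 8.32 CPM in KO libraries, against 223 ± 7.68 CPM in control libraries, and the growth factor gene Areg rose to 84.6 ± 1.68 CPM, against 55.5 ± 2.16 CPM in control libraries (SD, n = 3 each). Igfbp4 and Xbp1 fell. Tff1, Tff3, Agr2, Cxcl12 and Pgr had 0 counts and Greb1 had 3 in all, while Esr1 itself was measured in every library.

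Components downstream of the prolactin receptor were present although its own row was near 0. Of 12 genes, 10 were tested, 5 fell and 1 rose (median -0.22), a number of calls close to the background share of 54.6%. Stat5a stood at 21.7 ± 1.49 CPM in KO libraries and 21.0 ± 1.80 CPM in control libraries, and Stat5b at 45.1 ± 0.757 CPM in KO libraries and 48.0 ± 0.601 CPM in control libraries (SD, n = 3 each), and neither passed (edgeR adjusted p = 0.735 and 0.195). Jak2 fell by 0.35 on the log2 scale. The Stat5 feedback genes Socs2 and Cish fell by 0.38 and 0.42, the call of Cish being lost without KO replicate 3 (edgeR adjusted p = 0.0597) or control replicate 1 (edgeR adjusted p = 0.0641), and Socs3 rose by 0.22. Cyclin D1 (Ccnd1) fell to 1351 ± 35.9 CPM in KO libraries, against 1978 ± 28.6 CPM in control libraries (SD, n = 3 each). Other receptors use the same kinase and factors, so these values do not speak for prolactin.

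Of 20 other milk and secretory genes, 10 had 0 counts in every library and 7 were tested, of which 3 fell and 2 rose (median -0.043), beside 54.6% called over all tested genes. Btn1a1, which coats milk fat globules, rose 3.04-fold with 111, 87 and 108 counts in KO libraries and 37, 30 and 26 in control libraries (edgeR adjusted p = 7.09e-08). Mfge8, another milk fat globule protein that many cells make, rose by 0.27 on the log2 scale, while Xdh, the enzyme that pairs with butyrophilin on the globule, did not pass (0.069, edgeR adjusted p = 0.173). Spp1 and Lcn2, secreted proteins with roles beyond milk, fell by 1.31 and 2.28, and Slpi, a protease inhibitor, by 0.27. Wfdc2 did not pass, at 475 ± 14.6 CPM in KO libraries and 490 ± 8.70 CPM in control libraries (SD, n = 3 each). Of 11 other mucins and apical glycoproteins, Podxl alone was tested and fell by 0.10 on the log2 scale, a call lost in 8 of 14 alternatives, and the mucins of the list had between 0 and 26 counts over all libraries.

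Markers of the basal layer moved beside the luminal genes. Of 12 listed, 5 were tested, 4 rose and 1 (Mylk) fell, beside 27.1% higher and 27.5% lower over all tested genes. The summed level of the list ran from 958 to 991 CPM in KO libraries and from 73.8 to 74.3 CPM in control libraries. Krt14 made up nearly all of it in KO libraries and most of it in control libraries. Its level was 957 ± 18.0 CPM in KO libraries and 60.2 ± 1.08 CPM in control libraries (SD, n = 3 each). Mylk had 8.05 ± 0.902 CPM in KO libraries and 13.4 ± 1.30 CPM in control libraries (SD, n = 3 each). Krt17 had 45, 53 and 44 counts in KO libraries and 1, 16 and 1 in control libraries, and Acta2 12, 18 and 21 counts in KO libraries and 0 in each control library. Krt17, Trp63 and Acta2 passed the filter on low counts through the KO libraries alone. They could hardly be called in the other direction, so the tally of rises adds no support. With no filter on low counts, 10 genes of the list were tested, 4 rose and 1 fell. Krt5 and Lgr5, defining markers of basal and stem cells, had 0 counts in all libraries. What part these genes have in the values of the luminal members was not tested. Over all the lists 50 genes were called. That number is not a share of the tested list genes. Over all tested genes 6639 of 12158 (54.6%) were called. Against a minimum fold change of 1.5, 907 genes were called over all tested genes, beside 6639 without it. In the lists, 14 of the 50 kept the call. Those that kept the call and rose were Grhl1, Cd24a, Ly6a, Ctsd, Btn1a1, Krt14, Krt17, Trp63 and Acta2. Those that kept it and fell were Mecom, Nrip1, Spp1, Lcn2 and Cd68. Of the 14, Grhl1, Krt17, Trp63 and Acta2 had passed the filter on low counts through the KO libraries alone.

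**Figure D4:**
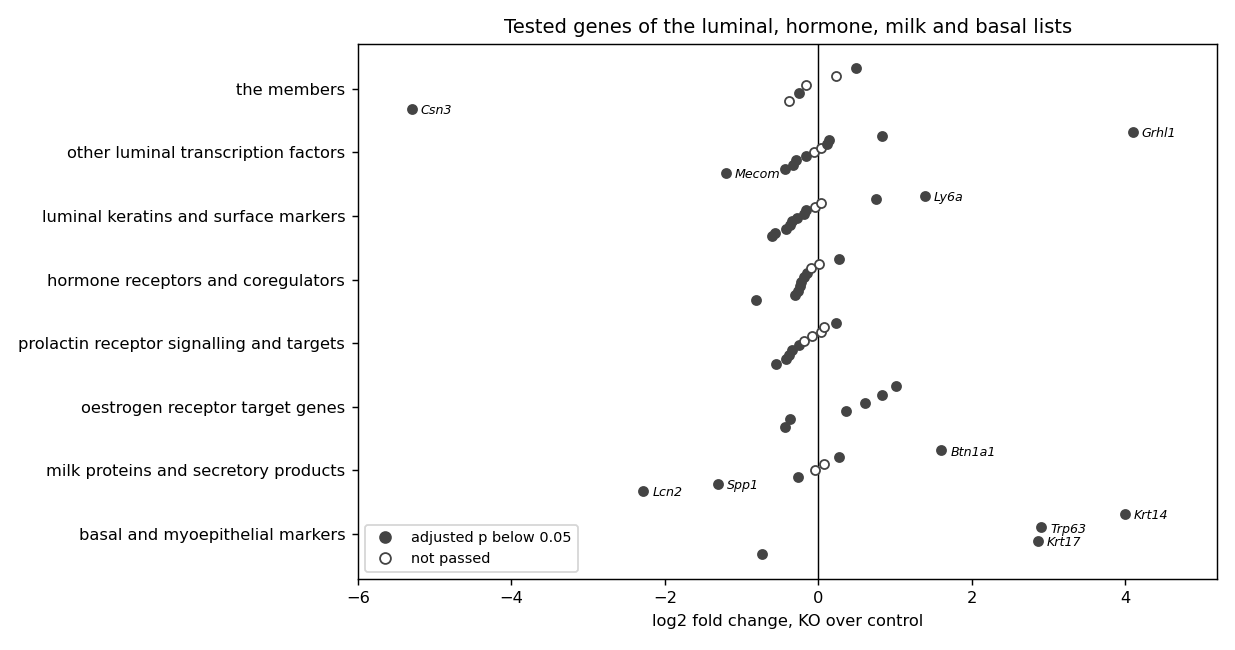
Log2 fold change, KO over control, of the tested members and the tested genes of the luminal, hormone, prolactin, oestrogen, milk and basal lists. Filled points have an adjusted p below 0.05. The mucin, leukocyte, and endothelial and fibroblast lists are not drawn. Acta2 of the basal list is not drawn either, since its control libraries were all at 0. Most tested luminal keratins and hormone receptor genes lie left of 0, Csn3 lies farthest left and Krt14 and Grhl1 farthest right.

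Many markers of cells other than epithelium were at or near 0, but Pdgfra and Cd68 were not. Of 7 leukocyte markers Adgre1 and Cd3e had 0 counts and Ptprc had 3 in all. The list summed to 5.99 to 8.64 CPM in KO libraries and 13.9 to 15.9 CPM in control libraries, mostly Cd68. Cd68 fell to 5.97 ± 0.974 CPM in KO libraries, against 13.7 ± 1.46 CPM in control libraries (SD, n = 3 each, edgeR adjusted p = 7.88e-10). Csf1r did not pass, at 1.22 CPM in KO libraries and 0.921 CPM in control libraries. Of 9 endothelial and fibroblast markers Kdr, Tek and Lum had 0 counts, and the list summed to 39.8 to 45.0 CPM in KO libraries and 36.4 to 38.3 CPM in control libraries, mostly Pdgfra. Pdgfra did not pass, at 39.4 ± 3.29 CPM in KO libraries and 36.4 ± 1.16 CPM in control libraries (SD, n = 3 each). Col1a1 rose, with 33, 18 and 21 counts in KO libraries and 10, 9 and 5 in control libraries. It passed the filter on low counts through the KO libraries alone. All 4 adipocyte markers had 0 counts. The labelled mammary carcinoma line showed simple epithelial keratins and Epcam at high levels in every library, next to Gata3 and Elf3. The basal keratin Krt14 was high as well in KO libraries, at 957 CPM, against 60.2 CPM in control libraries. No casein of the cluster other than Csn3 had a count, and Csn3 had 1, 2 and 3 counts in KO libraries 1 to 3.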

How the data were processed

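Per the labels, cells were freed from collagen I gels with collagenase, and stranded poly(A) libraries were made from their RNA. The deposited values are raw, unscaled read counts per gene symbol with a column for each library. FastQC 0.11.9, STAR 2.7.9a, featureCounts and R 4.1.1, and the builds hg38 and mm10, are named per the submitters' processing notes. The sources used here do not give the annotation, the strand setting or the treatment of reads over 2 genes, so antisense partners of a gene cannot be told from it.

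From the deposited counts, 12158 genes passed filterByExpr (minimum count 10, total 15), libraries were scaled with TMM, and KO was compared with control by edgeR 4.0.16 (quasi-likelihood F-test, group as the only term, R 4.3.3), with Benjamini-Hochberg adjustment over all tested genes and a threshold of 0.05. Fold changes use a prior count of 0.125, and SE is the fold change over the square root of F. CPM divide by the total of the tested genes in a library times its TMM factor. Library totals over all genes were 15531790 to 20447719 counts. Replicates differed by more than counting noise (chi-square per degree of freedom 2.29 to 4.85), with a biological coefficient of variation of 4.00%. Intervals are at 95%, and those of summed counts and limits for 0 counts (3 counts) cover counting error only. Low members have no test in the main comparison. Alternatives used DESeq2 1.42.0, limma 3.58.1 (voom), other scalings and filters, a minimum fold change, the replicate number as a block, and each library left out. The test was checked on simulated counts in which far fewer genes changed than were called here. That check does not cover a share of calls as large as this one.

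The 10 genes, the lists and the rule for named genes were chosen with earlier results of these data known. The rule took all 10 genes, the 4 genes with the smallest adjusted p of each list and the 2 nearest genes by pattern. Further list genes were picked with their values in view. Gene positions come from GENCODE M21 (mm10), promoter sequences from RefSeq (GRCm38.p6). Some listed genes are not reported here.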

Additional observations from a re-analysis of the deposited data

How the results depend on the processing

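Over 14 alternatives (13 for Ehf and Csn3) the direction of all 6 tested genes held. The number of changed genes among all tested was 5831 to 6694 under 7 of 8 alternative fits and 5922 to 6276 with 1 library left out, against 6639, and the number among the members was 3 or 4 in those fits, against 3. Against a minimum fold change of 1.5, 907 genes and 1 member (Csn3, tested through the control libraries alone) remained. The additional member was Foxa1, called with upper quartile scaling, no filter on low counts, the replicate block, and without KO replicate 3 or control replicate 2. It was also called with the filter at a mean of 5 CPM, which left out Csn3 and Ehf. The log2 fold change of Esr1 ran from -0.24 to -0.098 and that of Ehf from 0.072 to 0.37, without a call. The replicate block gave 6443 changed genes. Same-numbered libraries did not deviate together (r = -0.062, 0.037 and -0.067 for numbers 1 to 3), so the numbers were not taken as pairs. Upper quartile scaling lowered the median log2 fold change of all genes from -0.0061 to -0.029 and the share of rises among calls to 45.2%, against 49.7%. Depth limits Prlr, Ltf, Muc1 and Elf5: 3 counts are 0.148 to 0.194 CPM in a single library.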

Other observations

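A gene on the opposite strand that overlaps the Gata3 locus without sharing exon bases, 4930412O13Rik, had 191, 148 and 227 counts in KO libraries 1 to 3 and 122, 113 and 91 in control libraries 1 to 3. Its level was 9.66 ± 1.89 CPM in KO libraries and 6.03 ± 0.560 CPM in control libraries (SD, n = 3 each), which is 0.68 higher on the log2 scale (edgeR adjusted p = 0.000143, SE 0.15). 9230102O04Rik, on the strand of Gata3 and with 77 exon bases in common, had 44, 56 and 54 counts in KO libraries and 45, 65 and 48 in control libraries. It did not pass, at -0.15 on the log2 scale (edgeR adjusted p = 0.597). A relation of either gene to Gata3 was not tested. Of the secretory genes too low to test, Pigr, the receptor that carries antibodies into milk, had 12, 31 and 7 counts in KO libraries and 3, 0 and 1 in control libraries. Muc15, a membrane mucin of milk fat globules, had 4, 15 and 4 counts in KO libraries and 0, 3 and 0 in control libraries. For both, KO library 2 held most of the counts. These genes were picked after their values were seen.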
